A study of Mus musculus with 32 samples.

Results

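The axon guidance ligands and receptors are the ephrins and Eph receptors, the semaphorins with their plexin and neuropilin receptors, the Slits and Robos, and the netrins with Dcc and the Unc5 receptors. They were taken by gene symbol: every gene named in a peak list whose symbol begins with Sema3 to Sema7, Plxn, an Eph receptor or ephrin prefix, Ntn and a digit, Robo, Slit1 to Slit3 or Unc5, together with Nrp1, Nrp2 and Dcc. The rule gave 67 of the 13143 genes named in any of 16 lists. Of the 71 protein-coding genes that the rule finds in the RefSeq gene table, Efna1, Sema3d, Sema3f and Unc5cl had no peak in any list. One gene found by its symbol, Unc50, is not a netrin receptor, and its values are given apart from the Unc5 receptors.

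The series measured N4-acetylcytidine (ac4C), an acetylated cytidine that the enzyme Nat10 writes into RNA, in hippocampus of C57BL6/J mice. Fragmented total RNA was captured with an antibody to ac4C (acRIP-seq), and each of the 16 captured libraries has 1 deposited list of peaks, the places where the authors called captured RNA as enriched. The synapse fraction gave 1 L and 1 C list on each of days 1, 6 and 20, and the homogenate gave 3 L and 3 C lists on day 6. The names of the peaks read Learning in the L lists and Control in the C lists. A separate set holds 2 cKO lists and 2 control lists. The abbreviation cKO usually stands for a conditional knockout. The labels name neither the deleted gene nor its driver, nor do they say whether homogenate or synapse was used. The names of its peaks carry the prefix AAV in both groups, cKO and control, and the labels do not say what vector that was. No label gives the age of the animals or says that libraries of a group came from separate animals, so a p-value reflects only how these samples differ among themselves, and that spread may be technical.

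Guidance molecules steer growing axons in the embryo: a ligand on a cell or in the matrix binds a receptor on the growth cone, which is attracted or repelled. In the adult hippocampus the same proteins act at synapses, where ephrins and Eph receptors, semaphorins and plexins shape dendritic spines and transmission. Acetylation of cytidine in messenger RNA has been tied to the stability and translation of the message. A peak list reports where acetylated fragments were enriched over background. It does not report how much of a gene's RNA was present, and in bulk tissue fewer cells of a type and less RNA per cell cannot be told apart.

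The lists differed in length. The 6 synapse lists held 5586 to 7293 peaks and the 6 homogenate lists 15182 to 16971, while the cKO lists held 1887 and 422 and their controls 4446 and 5132. Read counts are not in the files and the depth is unknown, so a missing peak may lie under the authors' threshold. No deposited peak had a fold under 2. The synapse L list of day 6 ended on chromosome 7 in file order, and 12 of the 67 genes lie beyond that end. These 12 were scored over the other 5 synapse lists. In homogenate L list 1 the names of the peaks contain the number 2, which the labels do not explain. Marker genes of hippocampal neurons had a peak somewhere for 10 of 10 genes, those of oligodendrocytes for 9 of 9, of astrocytes for 8 of 8, of microglia for 7 of 7 and of endothelial and mural cells for 6 of 8, with Tek and Cdh5 in none. In the synapse lists 2 to 6 of the oligodendrocyte and 4 to 5 of the microglial markers had a peak, against 6 to 9 and 3 to 7 in the homogenate lists, so the lists of both fractions held peaks at glial genes, whose part in the results below was not tested.

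The places that recur in most lists carry the clearest view of these genes, and the sequences at 5 of them are shown first. Overlapping peaks of a gene were joined into 300 regions. Of these, 130 rested on 1 list, and 33, in 25 genes, drew on at least 8 lists. Many of the recurrent regions covered an annotated transcription start site. Each sequence below runs from 250 bases before to 30 bases after the start site on the gene's own strand, from RefSeq on the GRCm38.p6 assembly, which is the mm10 build of the files. Capitals mark bases inside peaks of at least 8 lists. The start sites of 8 genes lay inside peaks of 8 to 12 lists. Shown are 5 of these, a Slit, 2 Eph receptors and 2 Unc5 receptors, while Efna5, Epha7 and Plxna2 are not shown.
Slit3 (chr11:35121206-35121485, plus strand): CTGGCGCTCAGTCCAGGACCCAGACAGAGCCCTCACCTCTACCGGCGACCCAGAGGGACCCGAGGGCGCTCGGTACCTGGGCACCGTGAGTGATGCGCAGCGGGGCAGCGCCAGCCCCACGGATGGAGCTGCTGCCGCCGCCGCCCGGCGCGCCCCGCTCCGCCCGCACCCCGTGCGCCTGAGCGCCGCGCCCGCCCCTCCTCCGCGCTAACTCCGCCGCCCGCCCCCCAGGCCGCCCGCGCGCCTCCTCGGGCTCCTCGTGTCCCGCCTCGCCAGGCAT
Unc5b (chr10:60831552-60831831, minus strand): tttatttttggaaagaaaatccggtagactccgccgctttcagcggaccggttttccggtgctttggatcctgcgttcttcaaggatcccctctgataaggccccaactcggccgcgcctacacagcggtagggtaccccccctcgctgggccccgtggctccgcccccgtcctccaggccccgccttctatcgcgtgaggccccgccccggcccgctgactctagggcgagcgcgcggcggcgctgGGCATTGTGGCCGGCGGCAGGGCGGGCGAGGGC
Ephb1 (chr9:102354664-102354943, minus strand): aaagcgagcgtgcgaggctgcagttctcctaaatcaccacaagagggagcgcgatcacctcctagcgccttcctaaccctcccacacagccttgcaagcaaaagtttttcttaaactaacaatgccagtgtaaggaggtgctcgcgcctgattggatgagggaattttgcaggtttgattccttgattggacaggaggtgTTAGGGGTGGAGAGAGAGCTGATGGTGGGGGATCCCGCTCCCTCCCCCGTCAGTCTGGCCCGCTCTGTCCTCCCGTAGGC
Epha6 (chr16:60605502-60605781, minus strand): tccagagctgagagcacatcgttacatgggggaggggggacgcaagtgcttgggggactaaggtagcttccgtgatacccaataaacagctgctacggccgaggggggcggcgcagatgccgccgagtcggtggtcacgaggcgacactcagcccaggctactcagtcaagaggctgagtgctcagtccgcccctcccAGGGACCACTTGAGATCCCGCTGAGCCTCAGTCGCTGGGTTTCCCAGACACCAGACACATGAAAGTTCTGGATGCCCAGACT
Unc5c (chr3:141465314-141465593, plus strand): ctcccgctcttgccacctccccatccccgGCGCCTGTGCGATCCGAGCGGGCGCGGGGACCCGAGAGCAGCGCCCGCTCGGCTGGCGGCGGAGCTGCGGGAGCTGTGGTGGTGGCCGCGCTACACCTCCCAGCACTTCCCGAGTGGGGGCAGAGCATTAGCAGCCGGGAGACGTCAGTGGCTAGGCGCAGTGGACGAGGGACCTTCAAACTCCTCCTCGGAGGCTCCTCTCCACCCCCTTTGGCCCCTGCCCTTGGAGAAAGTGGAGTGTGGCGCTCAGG
The 5 windows differ in how far the peaks reach upstream. In Slit3, which encodes a secreted ligand of Robo receptors, all 280 bases lay in peaks of at least 8 lists. In Unc5c, a receptor through which netrin repels, 251 did. In Unc5b, of the same receptor family, only 33 bases around the start did, and in the receptor kinases Ephb1 and Epha6 the stretch was 80 and 82 bases. Peaks of at least 8 lists therefore filled the upstream side of the window in Slit3 and most of it in Unc5c. They lay close to the start in Unc5b, Ephb1 and Epha6. Of the genes not shown, Efna5 had 169 such bases, Epha7 39 and Plxna2 33.

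The windows were also searched for CNNCNNCNNCNNCNN, 5 cytidines each followed by any pair of bases, a pattern that has been described at ac4C sites. On either strand it was found in 60.8% of all 32851 RefSeq promoter windows of the same length, in 64 of 73 windows of guidance genes (87.7%) and in all 8 windows of the genes whose start lay in peaks of at least 8 lists, with 1 window taken for each of these genes. On the gene's own strand the figures were 39.1%, 61.6% and 87.5%. The windows also differed in base composition, with a median GC content of 52.5% over all windows, 64.3% for guidance genes and 67.9% for the 8. A match says that the letters are in the window and nothing about an acetylated base, and the part of GC content in these shares was not tested.

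**Figure D1:**
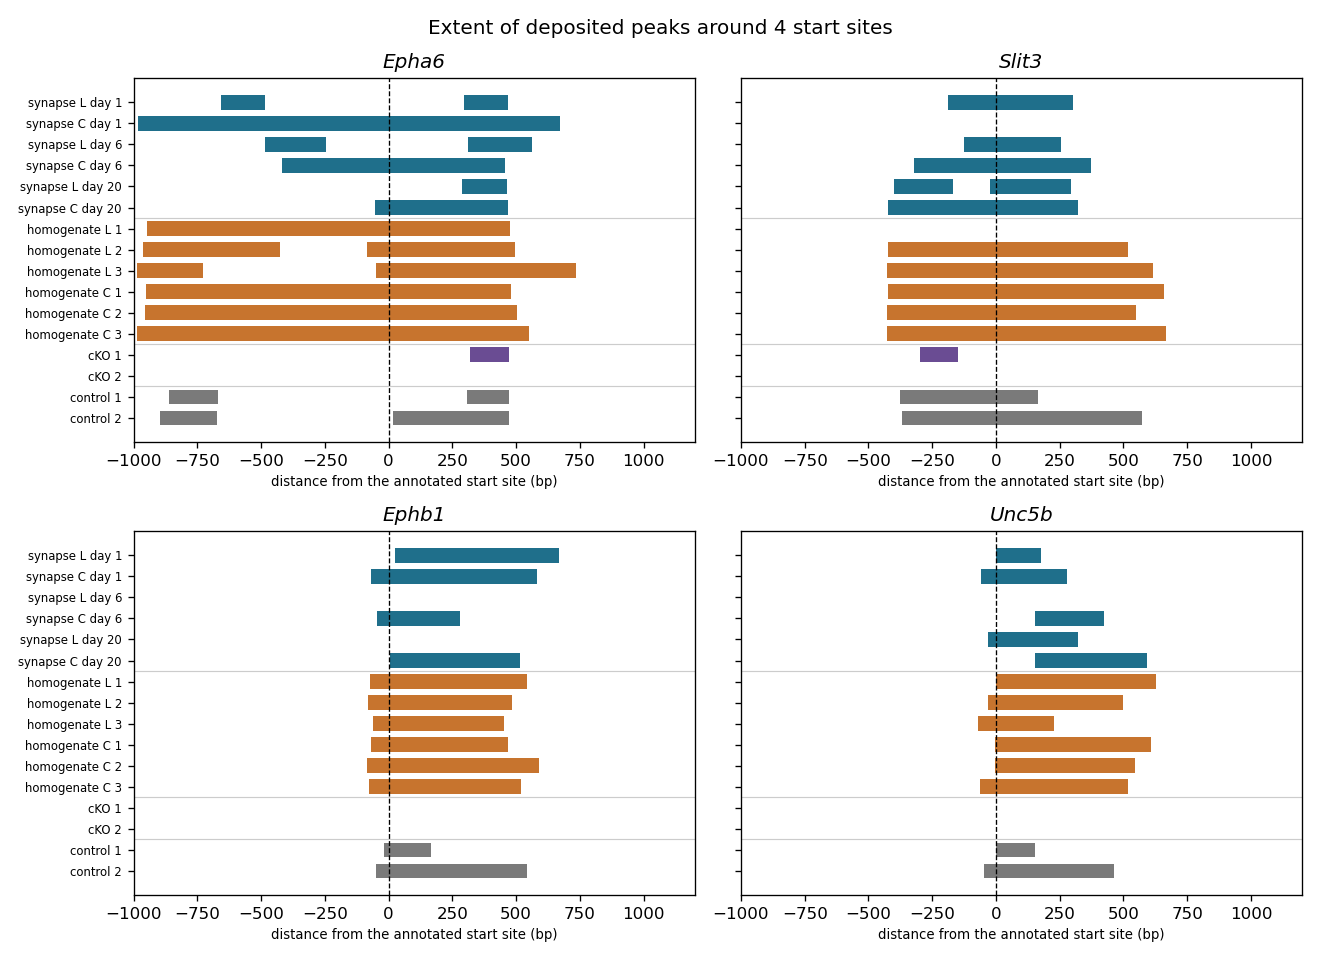
Extent of the deposited peaks around the annotated start site (dashed line, distance in bp on the horizontal axis) of Epha6, Slit3, Ephb1 and Unc5b, with the gene's own direction running left to right and a row for each list. Bars for the synapse are blue, for the homogenate orange, for cKO purple and for the controls of the cKO set grey. Ephb1 lies beyond the end of the synapse L list of day 6. The homogenate peaks of Ephb1 and Slit3 begin close together across lists, the synapse peaks of Epha6 vary in extent and some fall in separate pieces, and both cKO rows of Ephb1 and Unc5b are empty.

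Epha6, a receptor for ephrin-A ligands, had a peak in 15 of the 16 lists, and the second cKO list was the exception. All 15 lists placed it in 1 region, chr16:60604798-60606518, and 140 bases (chr16:60605074-60605213) lay in the peaks of all 15. Its highest deposited fold was 6.18, 11.1 and 5.57 in the synapse L lists of days 1, 6 and 20 and 4.65, 4.97 and 4.86 in the synapse C lists. It was 7.88, 14.9 and 33.4 in homogenate L and 11.6, 18 and 25.3 in homogenate C. The highest fold of a gene can come from different places in different lists. A peak named for a gene can also lie outside its span. The fold is the authors' value for a peak, and since list lengths and depths differ it is used here only to describe a peak within its own list. In those terms the Epha6 peak ranked above 80.1% to 88.5% of the peaks in each homogenate list and above 34.9% to 68.6% in each synapse list.

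Plxna2, a plexin that transmits class 6 and class 3 semaphorin signals, also had a peak in 15 lists. Its main region, chr1:194619725-194620569, covered a start site and was found in 14 lists, all 6 synapse, all 6 homogenate and both controls. The only cKO peak of Plxna2 lay apart from it. The highest fold of the gene was 12.2, 14.8 and 3.53 in synapse L and 22.3, 32.9 and 3.09 in synapse C, against 24.1, 32.9 and 191 in homogenate L and 27.6, 39.8 and 73.9 in homogenate C. The synapse C values of days 6 and 20 came from peaks outside the main region.

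Slit3 and Sema6d completed the 4 genes found in 15 lists. The Slit3 start region, chr11:35121027-35122120, was present in 13 lists, missing from the synapse C list of day 1, the first homogenate L list and the second cKO list. Sema6d, a transmembrane semaphorin, held several separate places. One, chr2:124609599-124611207, lay at 90% of the gene's length in 12 lists. Another, chr2:124663980-124665763, lay at 99.4% of its length in 11 lists, 6 of them synapse. One more, chr2:124089854-124090474, lay on the first start site in 10 lists.

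Among the other recurrent places, Plxna1 had 13 lists in chr6:89356407-89357912 and 11 in chr6:89362218-89362649. Plxnc1, the receptor of Sema7a, had 13 lists in chr10:94943360-94945070. Unc5b had 13 in chr10:60830956-60831651, with 11 covering the start. Ephb1 had 12 lists in chr9:102354027-102354777, and 142 of its bases were common to all 12. In the homogenate Ephb1 ranked high in every list, with a highest fold of 18.9, 45.1 and 62.4 in L and 22.2, 50.6 and 59.1 in C, above 93.1% to 96.6% of the peaks of each list.

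Across all guidance genes 1019 peaks were deposited, and 889 of them (87.2%) shared at least 1 base with a peak of the same gene in another list. When 50% of each peak had to be shared, 733 (71.9%) did. No guidance gene had a peak in every list that reached it. A gene of the set had a peak in a median of 7 lists, and a gene of any kind in a median of 6. Guidance genes are longer, with a median span of 46301 bp against 23671 bp for all genes in the lists, and the part of length in these counts was not tested.

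**Figure D2:**
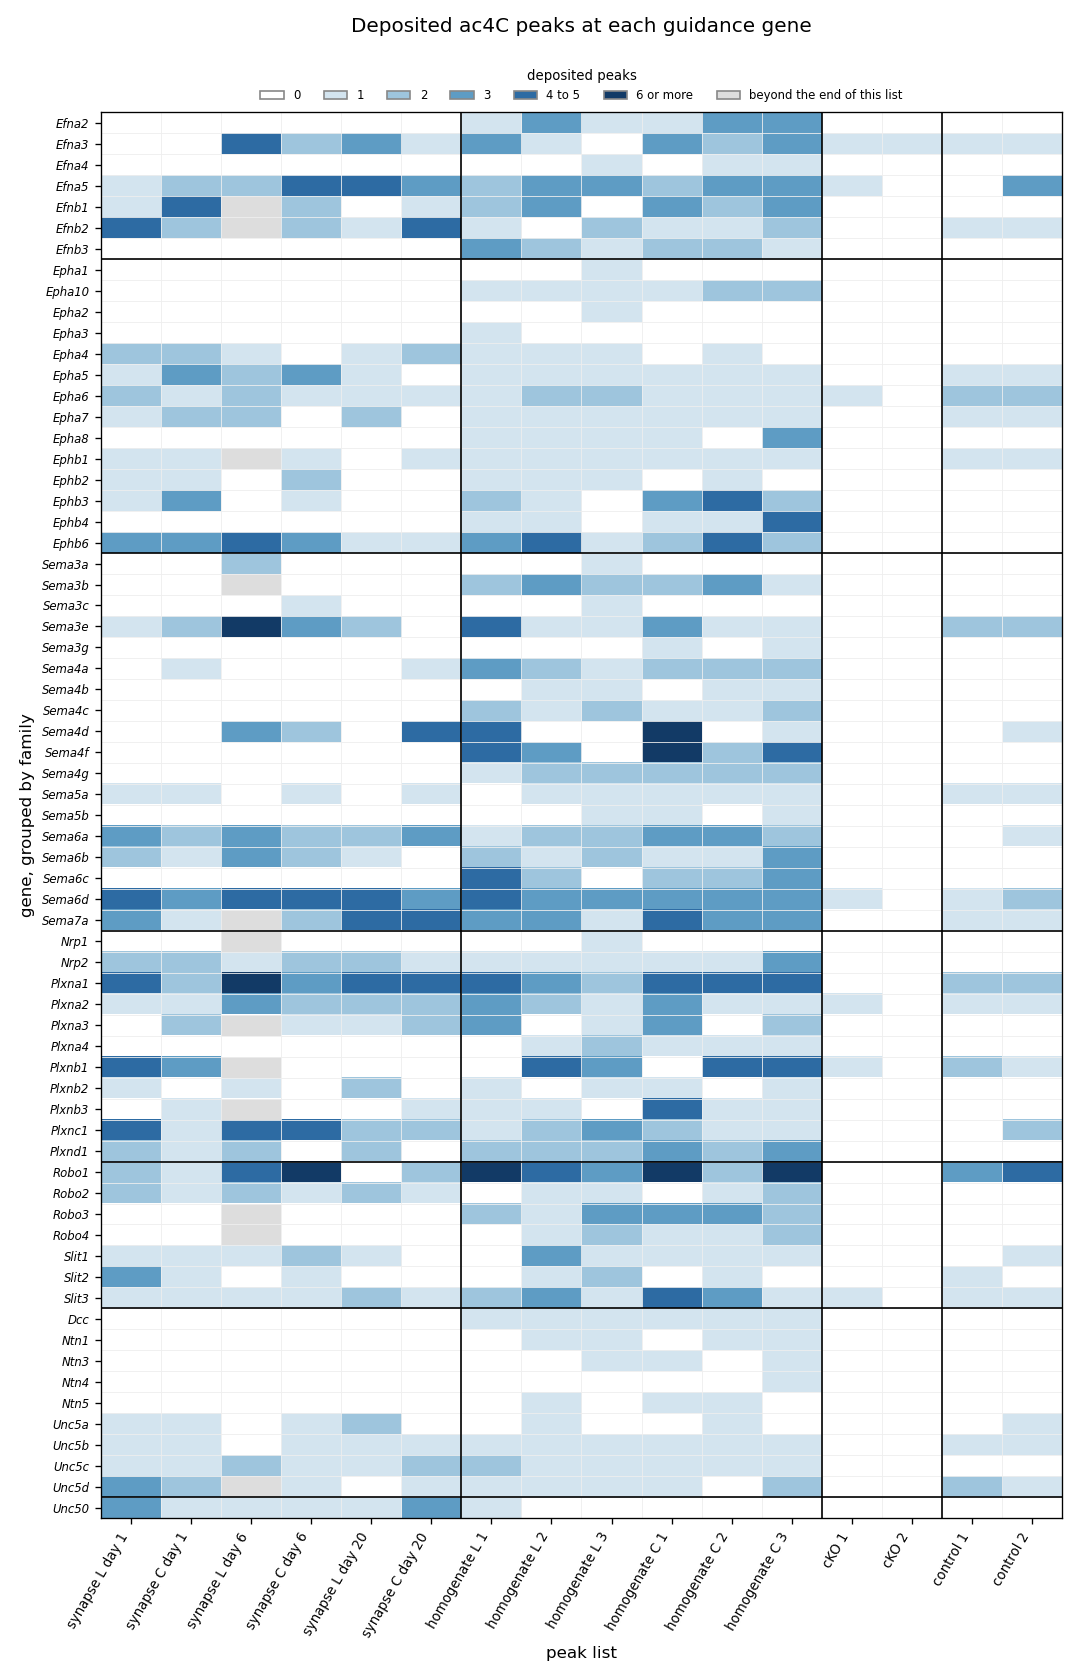
Number of deposited peaks at each of the 67 genes (rows, grouped by family) in each of the 16 lists (columns), with synapse at the left, then homogenate, cKO and control. White is no peak, darker blue more peaks, and grey a gene beyond the end of the synapse L list of day 6. Rows such as Dcc, Efna2 and Sema4g are filled in the 6 homogenate columns and empty elsewhere, while Plxna1, Sema6d and Plxnc1 are filled across both fractions.

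The synapse lists held 34, 25 and 27 guidance genes in L and 36, 33 and 27 in C on days 1, 6 and 20, against 46, 51 and 53 in homogenate L and 50, 51 and 55 in homogenate C. As a share of the 67 genes this was 37.3% to 53.7% in the synapse and 68.7% to 82.1% in the homogenate. All genes in the series gave 23.8% to 28.8% and 61.7% to 69.8%. Genes beyond the end of the synapse L list of day 6, 12 of the 67 and 2135 of all, count here as without a peak in it. That list gave the lowest synapse share of both. Over the 55 guidance genes before that end, day 6 gave 25 in L and 27 in C. The share of guidance genes lay above that of all genes in each of the 12 lists.

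**Figure D3:**
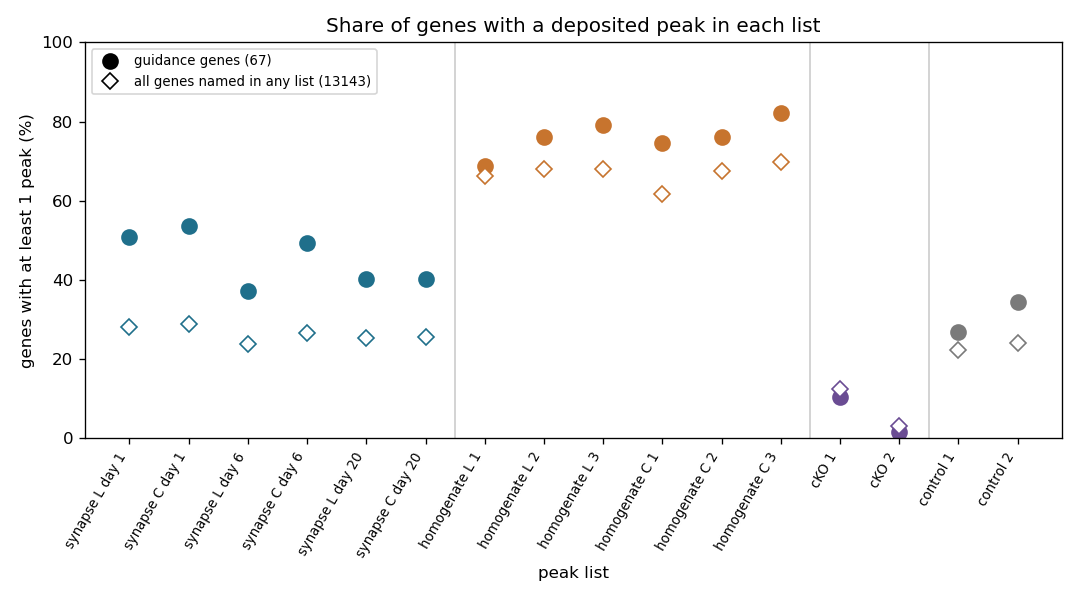
Percent of the 67 guidance genes (filled circles) and of all 13143 genes (open diamonds) with at least 1 peak, on a linear axis, for each list. In the 6 synapse lists the circles lie between 37.3% and 53.7% and the diamonds between 23.8% and 28.8%. Both lowest values are of the synapse L list of day 6, where genes beyond its end count as without a peak. In the homogenate lists the circles lie between 68.7% and 82.1%.

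Which guidance genes carried peaks in the synapse and which only in the homogenate was asked next. No guidance gene was without a homogenate peak, 29 of the 67 had one in all 6 homogenate lists, 26 had none in any synapse list and 15 had one in every synapse list that reached them. By the exact two-sided Fisher test on the number of lists with a peak, adjusted over 13115 genes by Benjamini-Hochberg, 8 guidance genes had a peak in fewer synapse lists, 11.9% of the 67 (95% Wilson interval 6.18% to 21.8%). Over all genes 14.3% did, so the share is near that of the series. The test takes the lists as independent, although homogenate lists of 1 number resembled each other. With the L and C lists of a number or day taken as 1 unit, an alternative chosen after seeing the data, none of the 8 was called, Sema3b included, and the smallest adjusted p of any gene was 0.356 (exact Fisher test). No guidance gene had a peak in more synapse lists at that threshold, against 0.0457% of all genes, and at an unadjusted p under 0.05 only Unc50 did.

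The 8 genes were Dcc, Efna2, Efnb3, Epha10, Robo3, Sema3b, Sema4c and Sema4g, each with a peak in 0 of the synapse lists and 6 of 6 homogenate lists (exact p = 0.00216, adjusted p = 0.0151). They are 2 ephrins, an Eph receptor, a Robo, 3 semaphorins and the netrin receptor Dcc. For Sema3b and Robo3, which lie beyond the end of the synapse L list of day 6, the comparison was 0 of 5 against 6 of 6.

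Sema3b, a secreted semaphorin, ranked high in each homogenate list. Its highest fold was 15.6, 56.4 and 66.3 in homogenate L and 11, 40.2 and 19.2 in homogenate C, above 84.0% to 96.8% of the peaks of each list. One of its regions, chr9:107614110-107617259, was found in all 6 homogenate lists and another, chr9:107619522-107620661, in 5. Both lie outside the span of Sema3b in the RefSeq table, so they carry its name as the files give it, and with peaks inside the named gene alone Sema3b lost its call and the other 7 kept theirs. Sema4c, a transmembrane semaphorin that binds Plxnb2, had a region at chr1:36558007-36558356 in all 6, with folds of 5.17, 12.4 and 24.5 in L and 5.43, 9.15 and 32.7 in C. Sema4g had a region at chr19:44991951-44993180 in all 6 and folds of 4.11 to 17.3.

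Dcc, the receptor through which netrin attracts axons, had exactly 1 peak in each homogenate list, at folds of 5.54, 8.10 and 21.1 in L and 3.40, 17.4 and 14.4 in C. Robo3, a Robo family receptor known for commissural axons that cross the midline, had folds of 7.94, 3.95 and 16.7 in L and 6.39, 5.62 and 5.58 in C. Within their lists these peaks stood above 32.0% to 83.6% of the peaks for Dcc and 27.9% to 80.3% for Robo3.

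Among the ephrin system, Efna2, a lipid-anchored ligand, had folds of 3.03, 7.24 and 10.1 in L and 7.66, 5.78 and 6.93 in C. Efnb3, a transmembrane ligand, had 5.65, 7.42 and 5.59 in L and 6.94, 11.7 and 15.7 in C, and Epha10, an Eph receptor without kinase activity, 5.50, 6.04 and 18.3 in L and 21.8, 3.08 and 11.9 in C. The peaks of these 3 genes stood above 13.9% to 96.5% of the peaks of their lists.

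Next to the threshold were Robo4, the Robo of blood vessels, and Sema4f, Sema6c, Ephb4, Plxna4 and Epha8, each with no synapse peak and 5 of 6 homogenate lists (exact Fisher test, adjusted p = 0.0638). In homogenate L list 2 and C lists 1, 2 and 3 the highest peak of Robo4 lay before the gene, 15719 to 15764 bp from its start site. The same held for Epha8 in homogenate L lists 1 and 2 and C lists 1 and 3, at 22946 to 38556 bp. Such peaks carry the gene's name as the files give it. Unc50, a membrane protein of the Golgi, went the other way, with 6 of 6 synapse lists against 1 of 6 homogenate lists (exact Fisher test, adjusted p = 0.0638). Its synapse peaks were scattered over several places in and after the gene, and no more than 3 lists shared one.

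**Figure D4:**
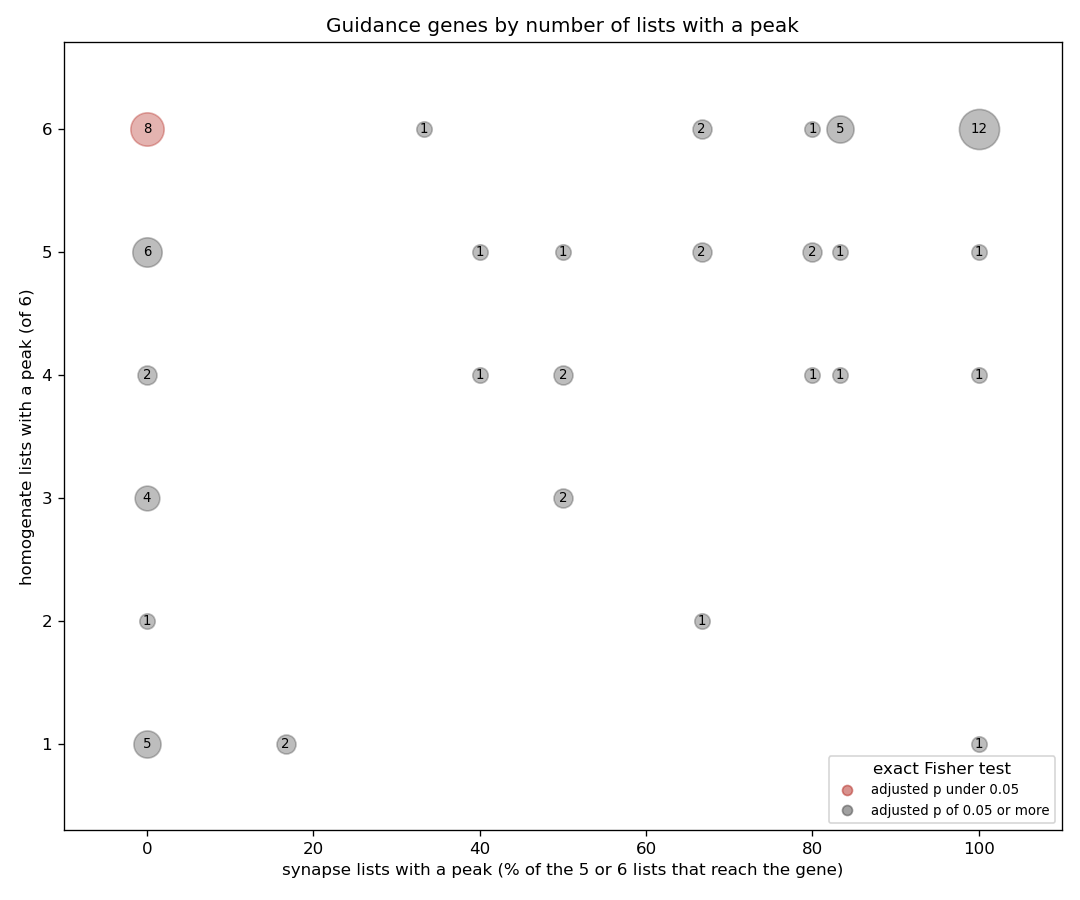
Guidance genes by the percent of synapse lists that reach the gene and hold a peak (horizontal) and the number of homogenate lists with a peak (vertical, of 6). The figure in each circle is the number of genes at that place, and its area grows with it. Red marks the 8 genes past an adjusted p of 0.05 in the exact Fisher test, at 0% of synapse and 6 homogenate lists. The largest other group is the 12 genes in every synapse list and all 6 homogenate lists.

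List length bears directly on this comparison, because the homogenate lists were longer. When each of the 12 lists was reduced to its 5586 peaks with the highest deposited -log10 p-value, 53 guidance genes were left, 11 of them with no homogenate peak. Sema3b alone was then called in fewer synapse lists, 0 of 5 against 6 of 6 (exact p = 0.00216, adjusted p = 0.0356), beside 5.17% of all 8799 genes. Robo2, a Slit receptor, and Unc50 were called in more, each with 6 of 6 synapse lists against 0 of 6 homogenate lists (exact Fisher test, adjusted p = 0.0356), beside 0.909% of all genes. The other 7 of the 8 genes lost their call, and Efna2 and Robo3 kept no peak in any of the 12 lists. For the 7 genes that lost their call, the absence from the synapse lists and the difference in list length cannot be told apart. Equal numbers of peaks do not make the depth equal, and the part of depth in the Sema3b call was not tested. Sema3b was also not called with peaks inside the gene alone, or with the L and C lists of a number or day as 1 unit. All homogenate lists are of day 6. With the 2 synapse lists of day 6 alone no guidance gene was called, and the smallest adjusted p of any gene was 0.253.

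The netrins, secreted ligands of Dcc and the Unc5 receptors, had no synapse peak. Ntn1 had a peak in 4 homogenate lists, Ntn3 and Ntn5 in 3 each and Ntn4 in 1. Their receptors divided. Unc5c was in all 12 synapse and homogenate lists, Unc5b in 11 of them, and Unc5d in 4 of 5 synapse lists and 5 of 6 homogenate lists. Unc5a was in 4 synapse and 2 homogenate lists. The highest fold of Unc5c was 5.06, 10.8 and 4.55 in synapse L and 8.32, 22.3 and 5.76 in synapse C, against 2.90, 5.70 and 17.4 in homogenate L and 4.21, 7.12 and 11.5 in homogenate C. For Unc5b it was 10.2 and 17.3 in synapse L on days 1 and 20 and 8.77, 76.8 and 15.4 in synapse C, against 9.93, 14.5 and 103 in homogenate L and 10.2, 11.4 and 41.7 in homogenate C. In the homogenate lists the Unc5c peak stood above 22.4% to 72.2% and the Unc5b peak above 73.3% to 96.7% of the peaks of the list. For Unc5d it was 4.85 in synapse L on day 1 and 6.26, 11.8 and 15.3 in synapse C, against 5.43, 9.22 and 7.42 in homogenate L and 4.76 and 29.0 in the homogenate C lists 1 and 3. Dcc, as above, was in the homogenate alone.

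The class 4 semaphorins, transmembrane ligands of B-type plexins among others, had 12 synapse peaks and 69 homogenate peaks over 6 genes. Sema4a was in 2 synapse and 6 homogenate lists, Sema4b in 0 and 4, and Sema4d in 3 and 3. Sema4f, with 20 homogenate peaks, had none in the synapse. The class 6 semaphorins had 47 synapse peaks and 56 homogenate peaks over 4 genes, with Sema6a in all 12 lists, Sema6d in all 12, Sema6b in 11 and Sema6c in the homogenate alone. Sema7a, a lipid-anchored semaphorin, was in all 5 synapse lists that reach it and all 6 homogenate lists. Its highest fold was 12.5 and 17.6 in synapse L on days 1 and 20 and 3.08, 15.3 and 7.03 in synapse C, against 12.1, 17.7 and 6.26 in homogenate L and 15, 15.4 and 8.50 in homogenate C. Of its recurrent regions one, chr9:57929715-57929967, lay 10145 bp before its start, in 7 lists. Sema6a had 9.78, 28.3 and 16.3 in synapse L and 17.5, 64.0 and 10.3 in synapse C, against 10.5, 14.5 and 24.9 in homogenate L and 12.8, 12.4 and 15.4 in homogenate C. Sema6d had 13.7, 12.7 and 4.96 in synapse L and 11, 4.76 and 3.89 in synapse C, against 14.5, 26.1 and 116 in homogenate L and 9.02, 34.2 and 42.6 in homogenate C.

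Of the secreted class 3 semaphorins, Sema3b and Sema3e were found in every one of the 6 homogenate lists, and the others in few. Sema3a and Sema3c had a peak in 1 synapse and 1 homogenate list each, and Sema3g in 2 homogenate lists. Sema3e, the ligand of Plxnd1, was in 5 of 6 synapse lists as well. Its highest fold was 7.59, 10.1 and 3.19 in synapse L and 13.1 and 4.39 in synapse C on days 1 and 6, against 2.96, 5.99 and 3.76 in homogenate L and 2.58, 3.78 and 2.01 in homogenate C. In its 6 homogenate lists the Sema3e peak stood above 0.077% to 49.9% of the peaks of the list. Sema5a was in 4 synapse and 5 homogenate lists and Sema5b in 3 homogenate lists. Sema5a, a transmembrane semaphorin, had a fold of 9.66 in synapse L on day 1 and 6.97, 6.85 and 7.09 in synapse C, against 3.01 and 10.8 in the homogenate L lists 2 and 3 and 4.32, 2.60 and 3.95 in homogenate C.

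Among semaphorin receptors, Plxna1, Plxna2, Plxnc1 and Nrp2, a co-receptor of class 3 semaphorins, were in all 12 lists. Plxna1 carried 25 synapse and 21 homogenate peaks and Plxnc1 17 and 10. The highest fold of Plxna1 was 6.44, 43.2 and 12.4 in synapse L and 20.2, 35.5 and 11.1 in synapse C, against 11.7, 22.4 and 85.2 in homogenate L and 10.4, 20.2 and 28.8 in homogenate C. For Plxnc1 it was 7.44, 56.3 and 7.97 in synapse L and 12.1, 18.5 and 6.65 in synapse C, against 4.53, 7.17 and 20.3 in homogenate L and 3.54, 6.90 and 16.7 in homogenate C. Within the synapse lists the Plxna1 peak stood above 70.6% to 97.1% and the Plxnc1 peak above 73.0% to 95.4% of the peaks, and within the homogenate lists above 86.0% to 95.6% and 35.2% to 81.3%. Plxnd1 was in 4 synapse and 6 homogenate lists, Plxna3 in 4 of 5 and 4 of 6, Plxnb3 in 2 of 5 and 5 of 6, and Plxnb1, a Sema4d receptor, in 2 of 5 and 4 of 6. Plxnb1 had a fold of 4.71 in synapse L and 7.22 in synapse C, both on day 1, against 61.0 and 9.52 in the homogenate L lists 2 and 3 and 26.3 and 6.34 in the homogenate C lists 2 and 3. Plxna4 had homogenate peaks alone, and Nrp1, the other neuropilin, had a single peak in the third homogenate L list.

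The Slits were present in both fractions: Slit1 in 5 synapse and 5 homogenate lists, Slit2 in 3 and 3 and Slit3 in 6 and 6. Of their receptors Robo1 was in 5 and 6 and Robo2 in 6 and 4, while Robo3 and Robo4 had no synapse peak. Robo1 carried 64 peaks over 13 lists, the most of any guidance gene. In the homogenate it had 12, 4 and 3 peaks in L and 11, 2 and 7 in C, so the first list of each group held the most. Its highest fold was 2.65 and 9.18 in synapse L on days 1 and 6 and 3.57, 10.3 and 4.36 in synapse C, against 6.77, 5.96 and 14.7 in homogenate L and 6.43, 7.22 and 5.45 in homogenate C. For the ligand Slit3 it was 3.60, 20.9 and 9.71 in synapse L and 2.93, 4.79 and 6.18 in synapse C, against 3.51, 15.3 and 40.7 in homogenate L and 12.1, 10.3 and 23.0 in homogenate C.

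In the ephrin system, Efna5 and the receptors Epha6 and Ephb6 were in all 12 lists. Ephb6, an Eph receptor without kinase activity, carried 16 synapse and 17 homogenate peaks, with a highest fold of 12.3, 23.9 and 5.44 in synapse L and 6.32, 22.2 and 3.33 in synapse C, against 17.6, 83.6 and 196 in homogenate L and 26.7, 41.0 and 5.56 in homogenate C. Efna5, a lipid-anchored ligand, had 4.57, 20.7 and 12.6 in synapse L and 7.36, 28.1 and 10.7 in synapse C, against 5.04, 7.03 and 53.7 in homogenate L and 10.5, 6.10 and 15.1 in homogenate C. Within the synapse lists the Ephb6 peak stood above 28.1% to 94.0% and the Efna5 peak above 47.0% to 94.7% of the peaks, and within the homogenate lists above 43.0% to 98.8% and 50.2% to 91.7%. Efnb2 was in all 5 synapse lists that reach it and 5 homogenate lists, Efnb1 in 4 and 5, and Efna3 in 4 and 5. Epha5 was in 5 and 6, Epha4 in 5 and 4, Epha7 in 4 and 6, and Ephb1 in 4 of 5 and 6. Epha5, a receptor of ephrin-A ligands, had a fold of 2.88, 3.75 and 4.45 in synapse L and 5.77 and 5.25 in synapse C on days 1 and 6, against 8.34, 25.3 and 33.0 in homogenate L and 6.57, 28.2 and 17.0 in homogenate C. Epha7, of the same class, had 3.42, 3.64 and 2.38 in synapse L and 10.1 in synapse C on day 1, against 4.13, 5.75 and 14.1 in homogenate L and 2.89, 7.35 and 3.61 in homogenate C. Efnb2, a transmembrane ephrin, had 6.61 and 5.94 in synapse L on days 1 and 20 and 27.9, 9.35 and 11.8 in synapse C, against 2.67 and 9.05 in the homogenate L lists 1 and 3 and 3.54, 4.32 and 8.55 in homogenate C. Ephb2 was in 3 and 4 and Ephb3 in 3 and 5. Efna4 was in 3 homogenate lists, Epha8 and Ephb4 in 5 each, and Epha1, Epha2 and Epha3 in 1 each, none with a synapse peak. The Efna4 peaks all lay before the gene, 1801 to 5115 bp from its start site.

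By role, 12, 10 and 10 of the 32 ligands had a peak in synapse L and 13, 15 and 11 in synapse C, against 19, 23 and 24 in homogenate L and 25, 25 and 28 in homogenate C. Of the 34 receptors 21, 14 and 16 had one in synapse L and 22, 17 and 15 in synapse C, against 26, 28 and 29 in homogenate L and 25, 26 and 27 in homogenate C. Ligands without any synapse peak numbered 15 and receptors 11. On day 6 the genes beyond the end of the synapse L list count as without a peak in L. The L and C counts of that day therefore cover unlike sets of genes. The difference between the roles was not tested. Among 61 genes of the signalling inside the growth cone, such as the collapsin response mediators, 60 had a peak in some list. Of the 60, 5 (Abl1, Dpysl5, Nck2, Rgs3 and Rras) were called in fewer synapse lists, beside 14.3% of all genes, and Abl2 in more, beside 0.0457%, by the exact Fisher test over all genes. With equal numbers of top-ranked peaks none of 49 was called in fewer and Limk2 alone in more.

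The share of peaks that covered a start site differed between the fractions as well. In the synapse 5.08% to 15.4% of the peaks at guidance genes covered an annotated start site, against 18.6% to 32.4% in the homogenate. For all peaks of a list the shares were 4.39% to 10.3% in the synapse and 15.2% to 26.2% in the homogenate, so the gap is not one of guidance genes alone. Median length over all peaks of a list was 188 to 381 bp in the synapse and 301 to 445 bp in the homogenate. The part of peak length in these shares was not tested. Of the 21 regions found in all 6 homogenate lists, 16 had a start site in the table, and 13 of those covered it.

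**Figure D5:**
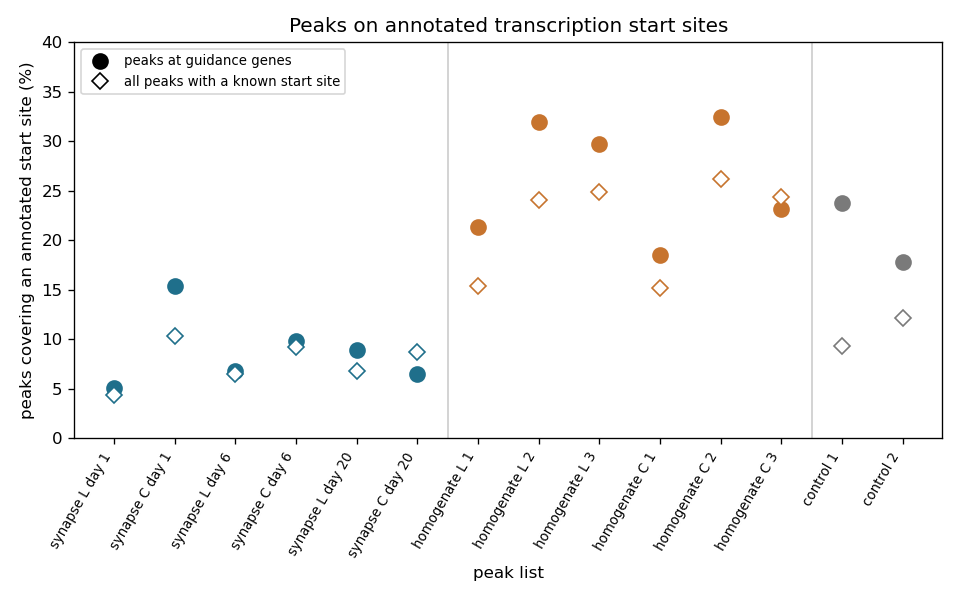
Percent of peaks that cover an annotated start site, for peaks at guidance genes (filled circles) and for all peaks (open diamonds), by list on a linear axis. The cKO lists are not drawn, since they hold 7 and 1 peaks at guidance genes. Circles lie at 5.08% to 15.4% in the synapse and 18.6% to 32.4% in the homogenate, and the diamonds of each fraction lie in the same part of the axis.

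At the far end of the genes, guidance genes and all genes differed in the synapse. The last 10% of the gene's span held 20.4% to 33.3% of the synapse peaks inside guidance genes and 7.55% to 26.3% of the homogenate peaks. For all genes it held 11.3% to 15.2% and 6.84% to 9.72%. The share of guidance genes was the higher one in each synapse list and in 5 of the 6 homogenate lists. Robo1 gave up to 10 such peaks in a list, and without it the shares were 19.2% to 30.6% and 6.00% to 16.4%. In each synapse list 6 to 8 guidance genes had a peak there, so the shares rest on few genes, and no test was run.

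Several places had synapse peaks and no homogenate peak, 81 of the 300 regions in all (27%), beside 18.9% of the regions of all genes. Of the 81, 64 rested on 1 synapse list (79%), against 82.1% of such regions over all genes. No test was run on these shares. The Sema3e region chr5:14252217-14252836, at 98.2% of the gene's length, held peaks of 4 synapse lists and both control lists of the cKO set. Epha4 and Epha7 each had such a place about the same distance after their start sites, chr1:77506687-77507222 and chr4:28820995-28821697, at 7866 and 7850 bp, in 4 synapse lists each. Robo2 had one at chr16:74352432-74352797 and Sema6d one at chr2:124658011-124658932, in 4 synapse lists each. All 5 genes had homogenate peaks elsewhere in the gene.

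The comparison of L with C sets the lists named Learning against those named Control. In the homogenate 50 ± 3.61 guidance genes had a peak in L and 52 ± 2.65 in C (SD, n = 3 each), less apart than the spread between lists. Before the end of the synapse L list of day 6, the synapse held 28, 25 and 24 genes in L and 28, 27 and 20 in C on days 1, 6 and 20. Within the number or day that L and C share, L held 4, 0 and 2 fewer genes in the homogenate, while in the synapse, over the genes before that end, L held as many as C on day 1, fewer on day 6 and more on day 20. The lists of days 1 and 20 do not end early. Over all 67 genes they held 34 in L and 36 in C on day 1 and 27 in each on day 20, so the order depends on the genes counted. No guidance gene was called by the exact stratified permutation test over both fractions with Benjamini-Hochberg adjustment, and no gene of the series was (0%). At an unadjusted p under 0.05 no guidance gene and 0.0229% of all genes passed. The test has 160 assignments and a smallest p of 0.0125. After adjustment over all genes it cannot call a few genes, and with 200 fully separated genes in simulated lists it called none. The 0 calls therefore do not show that L and C are alike at guidance genes.

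The lowest p among guidance genes was 0.2, for Epha4 and Plxnb2 (exact permutation, adjusted p = 1). Plxnb2, a B-type plexin, had a peak in the synapse L lists of all 3 days, at folds of 5.52, 22.3 and 6.55, and in none of the synapse C lists. It was the only 1 of 33 guidance genes with that pattern (3.03%), beside 0.639% of all genes, and none had the reverse, beside 0.596%. Its 3 L lists did not share 1 place: those of days 1 and 20 fell before the gene and that of day 6 on a start site. In the homogenate Plxnb2 had 1, 0 and 1 peaks in L and 1, 0 and 1 in C, the same in both groups.

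Epha4 had a peak in 3 of 3 synapse L and 2 of 3 synapse C lists, and in 3 of 3 homogenate L and 1 of 3 homogenate C lists. Its highest folds were 2.29 to 6.66 in synapse L and 2.05 to 7.48 in homogenate L. Within their lists these stood above 2.72% to 71.9% of the peaks in synapse L and 1.05% to 39.4% in homogenate L. In the homogenate no guidance gene was in all L lists and no C list, beside 0.271% of all genes, and none in all C lists and no L list, beside 0.209%. In all 6 lists were 29 of 67 (43.3%), beside 35.4%.

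On day 1 the synapse L and C lists both held 33 of the 37 guidance genes found in either (89.2%), beside 62.6% of all genes. Plxnb2 was in L alone, beside 17.9%, and Plxna3, Plxnb3 and Sema4a were in C alone, beside 19.5%. On day 6 both lists held 20 of 32 (62.5%), beside 59.5%. Epha4, Epha7, Plxnb2, Plxnd1 and Sema3a were in L alone, 5 genes beside 23%, and Ephb2, Ephb3, Sema3c, Sema5a, Slit2, Unc5a and Unc5b in C alone, 7 genes beside 17.5%.

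On day 20 both lists held 19 of 35 (54.3%), beside 54.3% of all genes. The 8 in L alone (beside 22.6%) were Epha5, Epha7, Plxnb2, Plxnd1, Sema3e, Sema6b, Slit1 and Unc5a. The 8 in C alone (beside 23.2%) were Efnb1, Ephb1, Plxnb3, Robo1, Sema4a, Sema4d, Sema5a and Unc5d. There is 1 list for each group and day, so these counts have no replicate check. Over all 3 days 13 of 33 genes were in all 6 lists (39.4%), beside 23.9%.

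Epha7 and Plxnd1 were in L and not C on days 6 and 20, and both were in L and C on day 1. Sema5a was in C and not L on the same days. Ephb1, Unc5d and Sema7a lie beyond the end of the synapse L list of day 6, and no comparison was made for them on that day. Ephb1 had its highest rank in the synapse C list of day 6, with a fold of 187 above 99.9% of the peaks of that list.

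The last set compares cKO with control lists. Guidance genes with a peak numbered 7 and 1 in the cKO lists against 18 and 23 in the control lists, or 10.4% and 1.49% against 26.9% and 34.3% of the 67. All genes gave 12.5% and 3.15% against 22.2% and 24.1%. Of the 24 guidance genes with a peak in this set, 11 (45.8%) had one in both controls and in neither cKO list, beside 33.8% of all genes, and none had the reverse, beside 1%. Of the 17 in both controls, 11 (64.7%, 95% Wilson interval 41.3% to 82.7%) were in neither cKO list, beside 61.4% of all genes, and the other 6 (Efna3, Epha6, Plxna2, Plxnb1, Sema6d and Slit3) were in at least 1, beside 38.6%. Among genes in both controls, the share found in neither cKO list is thus near that of the whole series. The cKO lists were also shorter, with 1887 and 422 peaks against 4446 and 5132 in the controls. Absence from them and list length cannot be told apart. With 2 lists a group the smallest exact p is 0.333, so no test was made.

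The 11 genes were Efnb2, Epha5, Epha7, Ephb1, Plxna1, Robo1, Sema3e, Sema5a, Sema7a, Unc5b and Unc5d. Their control peaks lay largely at the recurrent places described above. In both controls peaks shared a place at the start region of Epha7, Ephb1, Sema5a, Sema7a and Unc5b, and near the far end of Efnb2 (chr8:8619217-8621154, at 93.9% of its length) and Robo1 (chr16:73035480-73036116, at 98.9%). The control folds were, for example, 7.87 and 8.72 for Ephb1, 7.38 and 7.07 for Unc5b and 3.56 and 2.97 for Efnb2. In control lists 1 and 2 Ephb1 stood above 73.1% and 95.3% of the peaks and Unc5b above 69.5% and 90.6%. Efnb2 stood above 18.5% and 38.9%.

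Of the 15 regions held by both controls, 2 were held by a cKO list, those of Epha6 and Slit3. The first cKO list held Efna3, Efna5, Epha6, Plxna2, Plxnb1, Sema6d and Slit3, and the second held Efna3. At Efna5, Plxna2, Plxnb1 and Sema6d the cKO peak lay where neither control had one. At Efna5 it lay 165548 bp from the start site, outside the gene, and at Plxnb1 no other list shared the place. The cKO peaks of Efna5 and Plxna2 carry the same deposited fold, 3.17, above 2.1% of the peaks of that list.

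Efna3, a lipid-anchored ephrin, was the one guidance gene in all 4 lists. Its fold was 11.9 and 9.48 in the cKO lists and 4.42 and 7.37 in the control lists, and above 92.1% and 87.4% of the peaks in the cKO lists and 31.4% and 91.9% in the controls. The peaks of both cKO lists and the second control shared a region at the gene's start, chr3:89322202-89323250, which 4 homogenate and 3 synapse lists held too. The first control peak lay elsewhere. The shortest peak was 150 bp in the first and 500 bp in the second cKO list, against 150 and 200 bp in the controls. With peaks of at least 500 bp in all 4 lists, 2 genes, Efnb2 and Slit3, were in both controls and neither cKO list. With an equal number of top-ranked peaks, 422 a list, none was. That cut left no guidance gene in either control list, so its count could not have been other than 0.

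Homogenate lists of the same number resembled each other beyond their group. Of 8 guidance genes with a peak in exactly 4 of the 6 homogenate lists, 6 lacked it in the L and C list of 1 number (75%), beside 46.7% of all such genes. Ntn1, Plxnb1, Robo2 and Sema4b were missing from both lists numbered 1, and Plxna3 and Plxnb2 from both numbered 2. Plxnb1 shows it plainly, with 0, 4 and 3 peaks in L and 0, 4 and 5 in C. Sema4d had 4, 0 and 0 peaks in L and 8, 0 and 1 in C, the other way round.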

How the data were processed

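Peak lists of 16 captured ac4C libraries were used, of 32 libraries in all. The 16 input libraries were not used here. RNA was fragmented to about 200 nt, per the labels' protocols. FastQC, cutadapt 1.9.3, HISAT2 2.0.4 and the mm10 build are named in the submitters' processing notes, while a peak caller is not given in the sources used here. The deposited columns, per the file headers, are for each peak a score, its fold enrichment (a ratio of captured RNA to background) and the -log10 of both a p-value and a q-value. Each list belongs to 1 library. The files hold no read counts, so no count model was used and no depth-based interval is given.

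Of 13302 gene names, 214 were updated through RefSeq synonyms (GRCm38.p6) and 151 were kept as given, which left 13143 genes. The members and gene lists were chosen with earlier results of these data known. A gene was scored by whether a list held a peak. Synapse was compared with homogenate by the exact two-sided Fisher test (13115 genes), and L with C by an exact two-sided permutation within homogenate and within each day (13112 genes). Both were adjusted by Benjamini-Hochberg and called under 0.05. The tests were run in Python 3.11.15 with SciPy 1.17.1, pandas 2.3.3 and numpy 2.4.6. On simulated lists the synapse test called 100% of 4000 fully separated genes and the L and C test 83.8%, but with 200 such genes neither called any. Homogenate lists of the same number deviated together (correlations of 0.314, 0.221 and 0.116 over 12908 genes), so the numbers were taken to pair them, from the data. The main L and C test did not use this pairing. Only the replicate block, an alternative, exchanged L and C within a number. Exons, introns and UTRs were not annotated here. All 67 genes are named with their list counts. Folds per list are given for genes that were called, that separated groups, that recurred in most lists or that had the most peaks. Alternatives were a fold of at least 5, a -log10 p-value of at least 10, peaks inside the gene, equal numbers of top-ranked peaks, peaks of at least 500 bp in the cKO set, other treatments of the list that ends early, day 6 alone, a replicate block and leaving out each list.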

Additional observations from a re-analysis of the deposited data

How the results depend on the processing

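The 8 guidance genes with peaks in fewer synapse lists became 3 at a fold of at least 5, 5 at a -log10 p-value of at least 10, 1 (Sema3b) with equal numbers of top-ranked peaks and 0 with day 6 alone. Taking the L and C lists of a number or day as 1 unit, an alternative chosen after seeing the data, also gave 0 (smallest adjusted p of any gene 0.356, exact Fisher test). Leaving out a list gave 6 to 11, and without the third homogenate L list Ephb4, Sema4f and Sema6c joined. The count of 0 with peaks in more synapse lists became 2 (Robo2 and Unc50) with equal numbers of top-ranked peaks, and 0 to 1 leaving out a list, with Unc50 called without the first homogenate L list. The 0 genes in every homogenate L and no C list became 0 to 2 leaving out a list (Epha4 and Ephb2 without the second homogenate C list), and the 0 of the reverse became 0 to 1 (Sema3g without that list). The reverse was 1 (Ephb3) at either stricter threshold.

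In the cKO set the 11 genes in both controls and neither cKO list became 3 at a fold of at least 5, 7 at a -log10 p-value of at least 10, 2 at 500 bp and 0 with equal numbers of top-ranked peaks, where Efna3 was the 1 gene in both cKO lists and neither control. With equal numbers, 422 peaks a list, no guidance gene was left in either control, so that 0 could not have been otherwise. Leaving out a list gave 11 to 16. The mean number of guidance genes per list became, at a fold of at least 5, 17.3 in synapse L, 17.7 in synapse C, 40.7 in homogenate L, 41.3 in homogenate C and 8.5 in the controls. Here and in the means that follow, the synapse groups count only the 55 guidance genes before the end of the synapse L list of day 6. The other groups count all 67, so the means of synapse and homogenate are over unlike sets of genes. At a -log10 p-value of at least 10 it was 23.3 in synapse L, 45.3 in homogenate L, 48.7 in homogenate C and 13.5 in the controls. Inside the gene it was 45.7 in homogenate L and 47 in homogenate C, and in the controls 0 with equal numbers of top-ranked peaks. Leaving out a list gave means of 24.5 to 26.5 in synapse L, 23.5 to 27.5 in synapse C, 48.5 to 52 in homogenate L, 50.5 to 53 in homogenate C, 1 to 7 in cKO and 18 to 23 in the controls. These alternatives keep fewer peaks or lists by construction. No guidance gene was called between L and C under any alternative run, the replicate block included (0 called, 64 assignments, smallest exact permutation p 0.0313). On simulated lists the main test called none of 200 fully separated genes, so a count of 0 here does not show that L and C are alike. A gene without a peak cannot be told from one under the threshold, since the depth is unknown.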
